A study of Mus musculus with 8 samples.

Results

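The genes described here are 35 members of glycolysis, glucose transport and pyruvate use, out of 24385 features measured by RNA sequencing in mouse embryonic hearts. They are the glucose transporters, the enzymes from hexokinase to pyruvate kinase with their isozymes, the enzymes that set fructose 2,6-bisphosphate, the phosphoglucomutases, lactate dehydrogenase, monocarboxylate transporters, pyruvate dehydrogenase and its kinases. Members were taken by symbol from the deposited table, from a list chosen with earlier results of these data known, and all 35 were found. The 8 libraries formed 4 groups of 2 biological replicates. The wild type (WT) and *Dgcr8* conditional knockout (cKO) groups were each sampled at embryonic days E8.5 and E9.5, on a C57BL/6 background. Per the labels the cKO genotype is Mesp1Cre/+; Dgcr8-/-. Per the study's methods, cKO hearts had floxed *Dgcr8* on both alleles with a *Mesp1*-Cre allele, controls had floxed *Dgcr8* without Cre, and both carried a Rosa26 mT/mG reporter. The Cre allele therefore differs between genotypes together with *Dgcr8*. *Mesp1*-Cre acts in early mesoderm, whose progeny form nearly the whole heart tube, including endocardium and other endothelium. Whether animals were pooled for a library is not given in the sources used here.

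DGCR8 is the RNA-binding partner of DROSHA, and together they cut primary microRNA transcripts in the nucleus, so its loss removes most mature microRNAs. Glycolysis takes up glucose through facilitative transporters, phosphorylates it with hexokinase, commits it at phosphofructokinase, and ends in pyruvate. Pyruvate is either reduced to lactate and exported through proton-coupled monocarboxylate transporters, or oxidised in mitochondria by the pyruvate dehydrogenase complex, which the pyruvate dehydrogenase kinases inhibit. The early embryonic heart relies largely on glycolysis, and oxidative metabolism matures later. Many genes of glycolysis are textbook targets of the hypoxia-inducible factors.

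Values are FPKM, fragments counted per length of transcript and per total of mapped fragments, as deposited. Because FPKM is per length, levels of different genes can be set side by side. Changes between groups are log2 differences from a limma fit, after each library was scaled by median-ratio factors so that members are read relative to the median gene. A pseudocount of 1 was added, so changes of genes near or under 1 FPKM are understated. A member was called at a Benjamini-Hochberg adjusted p under 0.05 over the 10018 genes whose mean over the 8 libraries reached 1 FPKM, together with a change of at least 1.5-fold. A looser rule, the unadjusted p under 0.05 with the same fold, is given as a count and named as unadjusted; the p printed beside a member is always the adjusted one. Of the 35 members, 32 passed the level filter. *Eno2*, *Pfkfb2* and *Pdk4*, at mean levels of 0.731, 0.940 and 0.867 FPKM, did not.

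Some facts of the libraries bear on every result. At E9.5, *Dgcr8* was listed at 3.49 and 3.23 FPKM in WT, against 1.15 and 1.77 in cKO, and at E8.5 at 7.10 and 8.60 in WT, against 1.64 and 4.67 in cKO. It was lower in every cKO library than in the WT libraries of its stage, though the change at E9.5 had a limma adjusted p of 0.334. FPKM keeps no read totals, so depth is unknown. Loci shorter than 300 bp held between 15.7% and 54.5% of the FPKM of a library, so a deposited FPKM is relative to a total that itself varied. On the deposited scale the median tested gene moved by -0.07 (E9.5 cKO minus WT), -0.28 (E8.5 cKO minus WT), -0.84 (E9.5 minus E8.5 in WT) and -0.64 (the same in cKO) on the log2 scale. After scaling these medians lay between -0.05 and 0.03. Cardiomyocyte markers were detected in every library, with all 10 markers above the filter. In whole hearts, fewer cells of a type and less RNA per cell cannot be told apart.

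Glycolytic transcripts were among the most abundant of the heart. *Gapdh*, glyceraldehyde-3-phosphate dehydrogenase, stood in WT at 3722 and 4405 FPKM at E8.5 and at 9506 and 8164 at E9.5. *Ldha*, the A subunit of lactate dehydrogenase, stood in WT at 5382 and 5406 at E8.5 and at 8161 and 7272 at E9.5. Among tested genes with loci of at least 300 bp, *Gapdh* ranked between 3 and 19 over the 8 libraries, *Ldha* between 7 and 25, and *Eno1*, the ubiquitous enolase, between 11 and 27. *Aldoa*, *Pkm*, *Tpi1*, *Pgam1* and *Pgk1* were all above 1000 FPKM in every library. Among the low members, *Pfkfb4*, which makes and removes fructose 2,6-bisphosphate, was at most 3.76 FPKM, and *Slc2a4*, the insulin-responsive transporter GLUT4, at most 9.53. At E9.5 the 35 members together made up 4.52% and 4.60% of the FPKM over loci of at least 300 bp in WT, against 7.49% and 7.75% in cKO. At E8.5 the shares were 3.61% and 3.31% in WT, against 4.43% and 3.20% in cKO, so the E9.5 groups lay apart and the E8.5 groups overlapped.

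**Figure D1:**
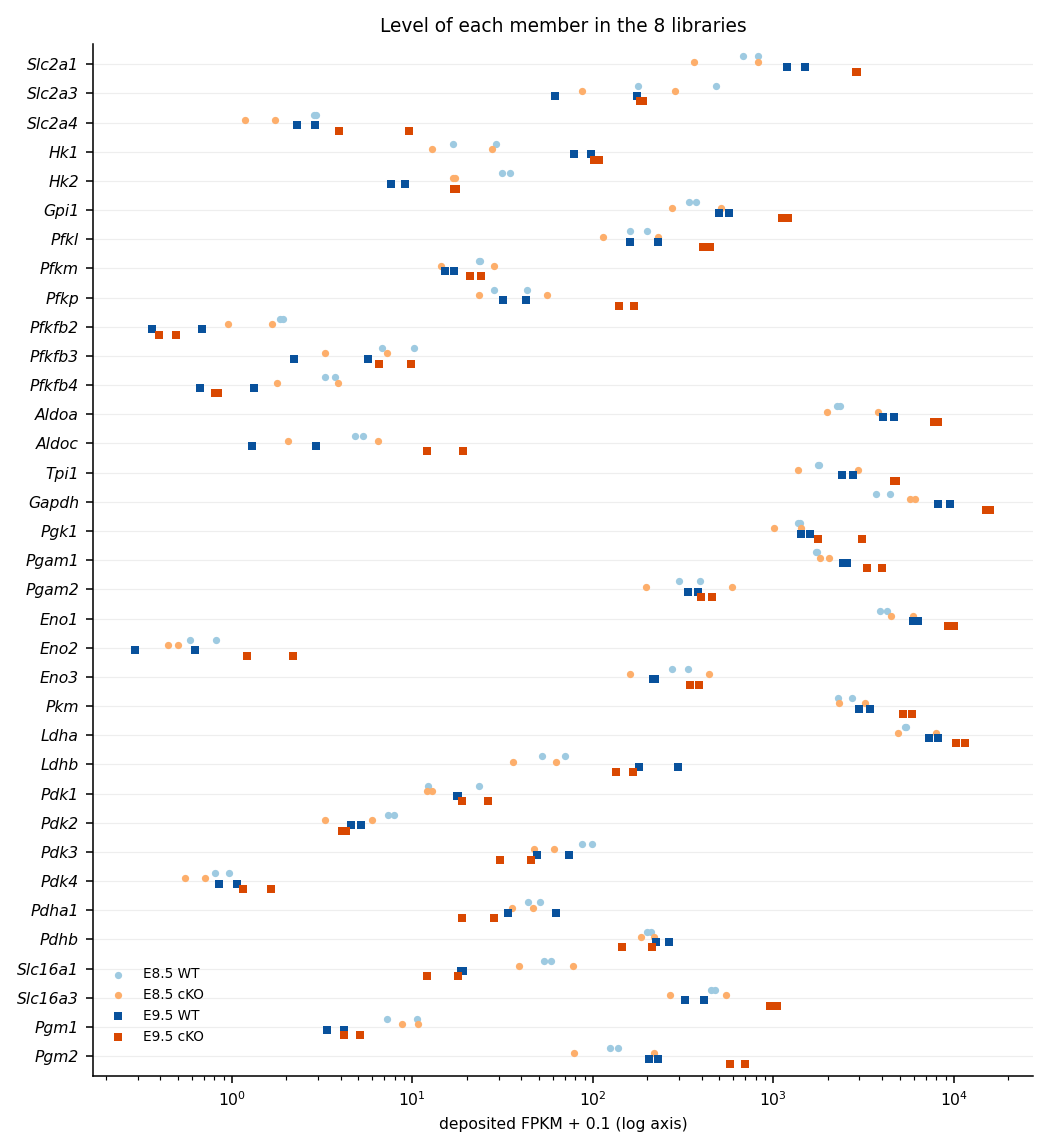
Deposited FPKM plus 0.1 of the 35 members (log axis) in the 8 libraries, with circles for E8.5, squares for E9.5, blue for WT and orange for cKO, 2 points per group. For *Slc2a1*, *Slc2a4*, *Hk1*, *Gpi1*, *Pfkl*, *Pfkp*, *Aldoa*, *Aldoc*, *Tpi1*, *Gapdh*, *Pgk1*, *Pgam1*, *Eno1*, *Eno2*, *Pkm*, *Ldha*, *Pdk4*, *Slc16a3* and *Pgm2* both orange squares of E9.5 cKO lie to the right of every other library. For the other members, among them *Ldhb*, *Pdk3*, *Pdha1* and *Slc16a1*, they do not.

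The comparison of cKO with WT asks how loss of *Dgcr8* in *Mesp1* progeny alters gene expression in the forming heart. At E9.5 the cKO libraries held more glycolytic transcript relative to the median gene at most steps from glucose uptake to lactate export. Relative to the median gene, 25 of the 32 tested members had a log2 change above 0, where 50.6% of all tested genes did. All 25 kept that sign under each of the 4 scalings tried, and the other 7 stayed below 0. The median over the members was 0.82, a 1.76-fold difference, beside 0.01 over all genes. In deposited FPKM, both cKO libraries were above both WT libraries for 25 members, a separation that 21.0% of tested genes showed in that direction. By the unadjusted rule, 17 members were higher and 0 lower, against 8.66% and 7.43% of all tested genes. The 17 were *Slc2a1*, *Slc2a4*, *Hk2*, *Gpi1*, *Pgm2*, *Pfkl*, *Pfkp*, *Pfkfb3*, *Aldoa*, *Aldoc*, *Tpi1*, *Gapdh*, *Pgam1*, *Eno1*, *Pkm*, *Ldha* and *Slc16a3*. On the other scalings *Pfkfb3*, *Aldoa*, *Tpi1*, *Pgam1*, *Eno1* and *Ldha* missed that rule at least once, and the other 11 kept it. By the adjusted rule only *Aldoc* was called higher and no member lower, where 0.539% of genes were called higher and 0.02% lower. The *Aldoc* call held under 4 of 18 alternatives, with adjusted p from 0.0251 to 0.426. No member was called when either E8.5 WT library or any E9.5 library was left out, and 4 were called without either of the E8.5 cKO libraries. With 2 libraries against 2, an exact permutation test cannot go below 0.333 (two-sided), so no such test is given for single members.

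Among the glucose transporters, *Slc2a1*, which encodes GLUT1, the main transporter of embryonic tissue, stood at 1194 and 1503 FPKM in WT, against 2867 and 2894 in cKO. The cKO libraries were nearly equal and did not overlap WT, and the log2 change relative to the median gene was 1.22 ± 0.35 (SE; limma adjusted p = 0.166). *Slc2a3*, the high-affinity GLUT3, had 61.2 and 177 FPKM in WT, against 182 and 189 in cKO. Its WT replicates differed widely, and the change of 0.95 ± 0.68 passed neither rule (adjusted p = 0.528). The low *Slc2a4* had 2.78 and 2.18 FPKM in WT, against 9.53 and 3.80 in cKO, a change of 1.18 ± 0.34 (adjusted p = 0.165).

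*Hk1*, the hexokinase of most tissues, stood at 78.6 and 97.9 FPKM in WT, against 101 and 107 in cKO, and its change of 0.36 ± 0.38 passed neither rule (adjusted p = 0.684). *Hk2*, the inducible hexokinase of muscle and heart, was the scarcer isozyme at E9.5, with 9.001 and 7.49 FPKM in WT, against 17.0 and 17.3 in cKO. Its change was 1.11 ± 0.24, or 2.15-fold, with adjusted p = 0.099. *Gpi1*, which turns glucose 6-phosphate into fructose 6-phosphate, had 565 and 501 FPKM in WT, against 1123 and 1203 in cKO, a 2.37-fold difference (adjusted p = 0.123). *Pgm2* as listed in the table lies at chr4:99929451-99987294 (GRCm38), a locus that RefSeq now names *Pgm1*. This phosphoglucomutase links glycolysis with glycogen, and it had 229 and 205 FPKM in WT, against 571 and 697 in cKO, a 3.15-fold difference (log2 change 1.66 ± 0.42, adjusted p = 0.130). The gene listed as *Pgm1*, RefSeq's *Pgm2* on chromosome 5, had 4.05 and 3.28 in WT, against 4.07 and 5.04 in cKO, and its change of 0.37 ± 0.29 passed neither rule.

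Phosphofructokinase, the committing step, has 3 isozymes, with log2 changes from 0.58 to 2.16 that were not tested against each other. *Pfkp*, the platelet type, stood at 31.5 and 42.6 FPKM in WT, against 139.8 and 169 in cKO. Its change of 2.16 ± 0.40, or 4.48-fold, missed the adjusted rule at an adjusted p of 0.068. *Pfkl*, the liver type and the most abundant, had 231 and 160.0 FPKM in WT, against 407 and 446 in cKO (2.40-fold; adjusted p = 0.154). *Pfkm*, the muscle type, had 16.9 and 15.0 in WT, against 23.9 and 20.7 in cKO, and its change of 0.58 ± 0.29 passed neither rule (adjusted p = 0.362). Of the enzymes that set fructose 2,6-bisphosphate, the activator of phosphofructokinase, *Pfkfb3* had 5.59 and 2.12 FPKM in WT, against 6.46 and 9.71 in cKO (log2 change 1.13 ± 0.46, adjusted p = 0.276). *Pfkfb4* had 1.22 and 0.566 in WT, against 0.742 and 0.710 in cKO, with a change of -0.07 ± 0.30. *Pfkfb2*, which was not tested, was listed at 0.259 and 0.586 in WT, against 0.393 and 0.294 in cKO.

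*Aldoc*, the brain-type aldolase, showed the highest change of the members tested at E9.5 and the single adjusted call. It had 2.84 and 1.18 FPKM in WT, against 19.0 and 12.0 in cKO, so the groups lay far apart, although the gene is low. Its log2 change was 2.69 ± 0.43, or 6.46-fold, with adjusted p = 0.049. The main aldolase, *Aldoa*, had 4658 and 4029.8 FPKM in WT, against 8188 and 7777 in cKO (log2 change 0.9993 ± 0.29; adjusted p = 0.167). *Tpi1*, triose phosphate isomerase, had 2771 and 2403 in WT, against 4677 and 4787 in cKO (1.99-fold; adjusted p = 0.197).

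From triose phosphate to pyruvate *Gapdh*, *Pgam1*, *Eno1* and *Pkm* were higher in cKO by the unadjusted rule, and the muscle isozymes *Eno3* and *Pgam2* did not pass it. *Gapdh* stood at 9506 and 8164 FPKM in WT, against 15946 and 15025 in cKO, a log2 change of 0.93 ± 0.24 (adjusted p = 0.131). This gene is also the reference that the study used to normalise its quantitative PCR. *Eno1* had 6348 and 5954 FPKM in WT, against 9293 and 10065 in cKO (1.71-fold; adjusted p = 0.168). *Pkm*, pyruvate kinase, had 3417 and 2990.1 in WT, against 5214 and 5864 in cKO (1.88-fold; adjusted p = 0.158), and *Pgam1*, the ubiquitous phosphoglycerate mutase, 2556 and 2417 in WT, against 3289 and 4023 in cKO (1.59-fold; adjusted p = 0.242). For each of the 4, both cKO libraries lay above both WT libraries. *Pgk1*, on the X chromosome, had 1587 and 1425 in WT, against 1773 and 3113 in cKO and passed neither rule (log2 change 0.76 ± 0.34, adjusted p = 0.312), though it passed the unadjusted rule as higher under quantile normalization. The muscle isozymes passed neither. *Eno3* had 215 and 221 FPKM in WT, against 387 and 344 in cKO (0.86 ± 0.40), and *Pgam2* 381 and 336 in WT, against 455 and 397 in cKO (0.36 ± 0.43). The neuronal enolase *Eno2*, which was not tested, was listed at 0.522 and 0.192 FPKM in WT, against 2.07 and 1.12 in cKO. *Eno1* has a near-identical copy, *Eno1b*, listed at 113 to 275 FPKM over the libraries, and *Gapdh*, *Ldha*, *Pgk1*, *Aldoa*, *Tpi1* and *Pgam1* have processed copies elsewhere in the genome. How reads shared with such copies were assigned is not given in the sources used here, so these levels are uncertain to that extent. Entries that overlap *Hk1*, *Pfkm*, *Pfkp*, *Pfkfb2*, *Tpi1* and *Pdha1* on the genome may share reads with them as well, since the use of strand in counting is not given in those sources.

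At the branch from pyruvate, *Ldha* and the lactate exporter gene *Slc16a3* passed the unadjusted rule as higher, and no gene of pyruvate oxidation passed it. *Ldha* had 8161 and 7272 FPKM in WT, against 10293 and 11525 in cKO (1.53-fold; adjusted p = 0.289), whereas *Ldhb*, the heart-type subunit, had 296 and 180.0 in WT, against 134 and 167 in cKO. The *Ldhb* log2 change of -0.51 ± 0.36 passed neither rule (adjusted p = 0.524). *Slc16a3*, which encodes MCT4, the lactate exporter of glycolytic cells, stood at 410.0 and 323 FPKM in WT, against 959 and 1051 in cKO, a change of 1.58 ± 0.33 or 2.99-fold (adjusted p = 0.098). *Slc16a1*, which encodes the more general MCT1, had 19.0 and 18.6 in WT, against 11.9 and 17.8 in cKO, with a change of -0.23 ± 0.41 that was slightly above 0 once libraries were centred by transcript GC content. *Pdha1* and *Pdhb* encode the subunits of the first enzyme of the pyruvate dehydrogenase complex, which makes acetyl-CoA in mitochondria. *Pdha1* had 33.7 and 62.1 FPKM in WT, against 18.7 and 28.0 in cKO, and *Pdhb* 223 and 264 in WT, against 145 and 213 in cKO. Their changes of -0.86 ± 0.39 (adjusted p = 0.319) and -0.35 ± 0.30 (adjusted p = 0.612) passed neither rule, although *Pdha1* was lower in both cKO libraries and passed the unadjusted rule on the deposited scale (log2 change -0.97), where 9.99% of genes were lower by it. Of the kinases that shut pyruvate dehydrogenase off, none passed either rule. *Pdk1* had 17.6 and 17.8 FPKM in WT, against 18.7 and 26.3 in cKO (log2 change 0.43 ± 0.36), *Pdk2* 5.10 and 4.49 in WT, against 4.18 and 3.98 in cKO (-0.10 ± 0.25), and *Pdk3* 49.1 and 74.1 in WT, against 30.3 and 45.5 in cKO (-0.57 ± 0.33). *Pdk4* was listed at 0.753 and 0.963 FPKM in WT, against 1.05 and 1.55 in cKO.

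**Figure D2:**
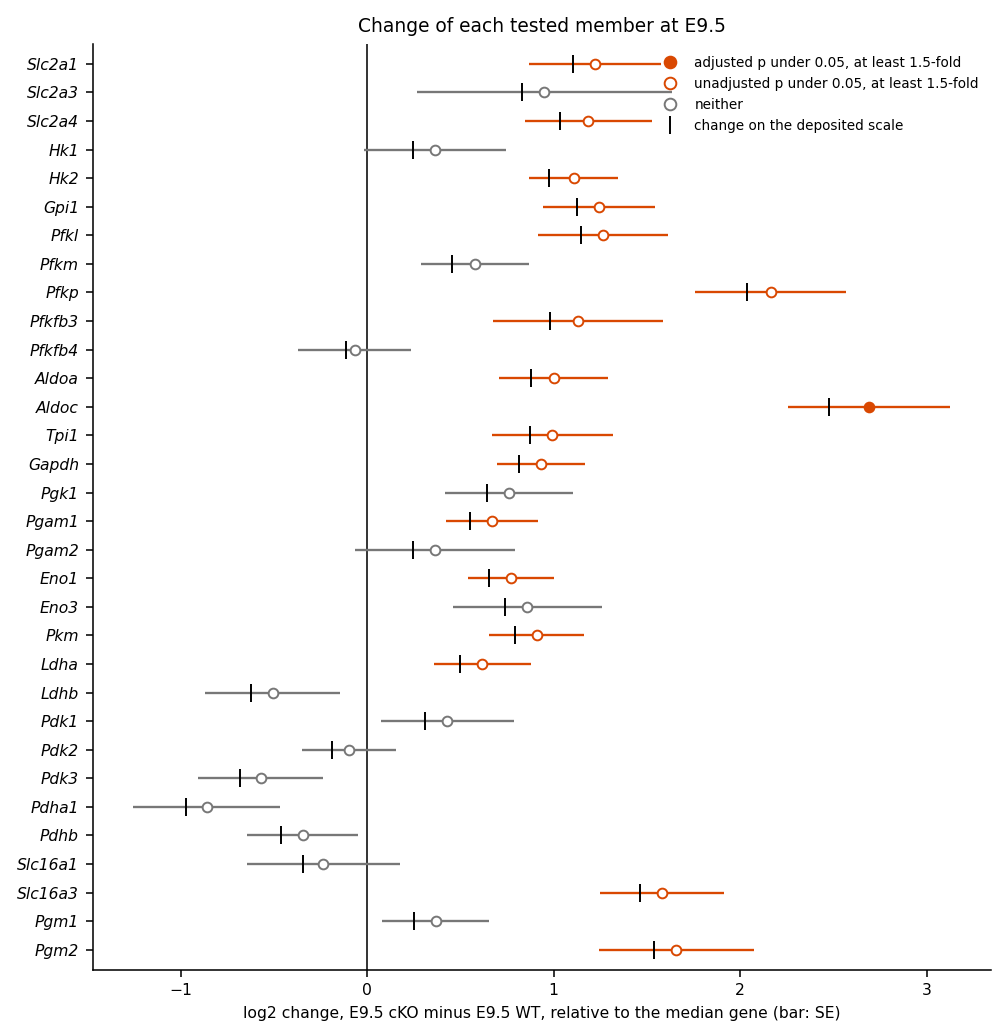
Log2 change of the 32 tested members, E9.5 cKO minus E9.5 WT, relative to the median gene (circles, bars are SE from the limma fit over 2 libraries per group), with black ticks for the change on the deposited scale. Filled orange marks the adjusted call, open orange the unadjusted rule and grey neither. *Aldoc* lies farthest right at 2.69, *Pfkp* follows at 2.16, and *Pdha1* lies farthest left at -0.86.

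Markers of other cell types also differed between the E9.5 libraries. Scaled FPKM summed over 10 endothelial markers was 172 and 161 in WT, against 313 and 309 in cKO, and 5 of the 10 were higher by the unadjusted rule, which 8.66% of all genes passed in that direction. Over 10 primitive erythroid markers it was 21397 and 44422 in WT, against 59991 and 50051 in cKO, with 2 of the 10 higher, and over 10 cardiomyocyte markers 85899 and 93138 in WT, against 109356 and 133370.0 in cKO, with 1 of the 10 higher. For 10 decidual stroma markers the sums overlapped, at 1103 and 1266 in WT, against 1132 and 1256 in cKO, as they did for 10 yolk sac endoderm markers, at 8936 and 6636 in WT, against 5886 and 10261 in cKO. Markers of myeloid and uterine natural killer cells summed to 12.4 and 15.5 in WT, against 17.2 and 24.9 in cKO. No marker of these lists was at 0 in all libraries, and their part in the glycolytic differences was not tested. The Y-linked *Eif2s3y* was at 9.74 FPKM in E9.5 WT replicate 2 and 4.75 in E9.5 cKO replicate 1, and under 0.1 in the other library of each group, so each E9.5 group held 1 library with and 1 without Y transcripts. At E8.5 it was at 10.1 in WT replicate 2 and under 0.1 in the other 3. The members *Pgk1*, *Pdk3* and *Pdha1* lie on the X chromosome, and the part of sex in their values was not tested.

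The promoters of all members with a window, whatever their change, were searched for the core letters bound by hypoxia-inducible factors. Many genes of glycolysis are textbook targets of these factors, and the search was chosen with the E9.5 changes known. RefSeq promoter windows (GRCm38.p6) were found by place for 33 of the 35 members, all but *Slc2a3* and *Slc2a4*. In the 250 bases upstream of the start site, ACGTG or GCGTG on either strand occurred in 26 of 33 members (78.8%), in 58.4% of tested genes with a window and in 38.6% of all genes in the promoter table. Counted separately, ACGTG occurred in 42.4% of members, 22.8% of tested genes and 16.6% of all, and GCGTG in 51.5%, 46.8% and 28.2%, the last core being near the share of tested genes. The first core overlaps the E-box CACGTG, found in 12.1%, 8.79% and 6.05%. Printed here are the upstream sequences of the 4 tested members with the highest E9.5 change and of the 1 with the lowest, among windows that lie outside the listed gene locus. They are on the strand of the gene, 5′ to 3′, and capitals mark the core letters on either strand. *Aldoc* (chr11:78322823-78323072, plus strand) has 1 core starting 50 bases before the start site, *Pfkp* (chr13:6648772-6649021, minus strand) has 3, the *Pgm2* of the table (chr4:99929201-99929450, plus strand) has 2, *Pfkl* (chr10:78009808-78010057, minus strand) has 1 and *Pdha1* (chrX:160138431-160138680, minus strand) has 3. *Pdha1*, the lowest in cKO, thus holds as many as *Pfkp*, and a match is a run of letters, not a shown site. Each member with a log2 change below 0 at E9.5 held at least 1 core, namely *Pfkfb4*, *Ldhb*, *Pdk2*, *Pdk3*, *Pdha1*, *Pdhb* and *Slc16a1*. Of the members higher by the unadjusted rule, *Gpi1*, *Aldoa*, *Tpi1* and *Pkm* held 0. The rest of those with a window held at least 1. Whether the cores bear on the changes was not tested.
Aldoc: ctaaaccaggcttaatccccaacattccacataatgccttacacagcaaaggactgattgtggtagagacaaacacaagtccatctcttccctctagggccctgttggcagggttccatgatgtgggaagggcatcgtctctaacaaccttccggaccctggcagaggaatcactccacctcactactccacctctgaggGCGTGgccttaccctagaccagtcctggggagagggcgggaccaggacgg
Pfkp: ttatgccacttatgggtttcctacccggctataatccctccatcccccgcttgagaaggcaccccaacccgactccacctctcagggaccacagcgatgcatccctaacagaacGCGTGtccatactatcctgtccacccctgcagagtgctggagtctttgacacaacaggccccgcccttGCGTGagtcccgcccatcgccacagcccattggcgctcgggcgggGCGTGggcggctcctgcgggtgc
Pgm2: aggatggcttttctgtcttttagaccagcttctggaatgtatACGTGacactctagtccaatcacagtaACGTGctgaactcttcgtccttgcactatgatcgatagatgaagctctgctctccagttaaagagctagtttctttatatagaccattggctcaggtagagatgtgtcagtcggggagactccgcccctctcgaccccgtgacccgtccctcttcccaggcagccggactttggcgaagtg
Pfkl: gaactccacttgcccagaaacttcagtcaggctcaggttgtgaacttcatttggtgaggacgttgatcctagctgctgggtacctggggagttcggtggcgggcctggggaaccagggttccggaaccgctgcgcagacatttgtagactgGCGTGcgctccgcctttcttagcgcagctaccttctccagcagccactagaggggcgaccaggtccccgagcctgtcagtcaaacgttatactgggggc
Pdha1: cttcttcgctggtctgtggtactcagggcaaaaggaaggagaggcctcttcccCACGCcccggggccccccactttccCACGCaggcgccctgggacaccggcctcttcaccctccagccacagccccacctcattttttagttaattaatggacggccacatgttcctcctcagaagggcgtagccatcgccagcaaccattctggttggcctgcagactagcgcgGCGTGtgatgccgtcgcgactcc

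At E8.5 no member was called in either direction by the adjusted rule, as for nearly all genes (0.00998% called). By the unadjusted rule of the limma fit, 2 of 32 were higher in cKO and 0 lower, against 1.33% and 0.848% of all genes. The 2 were *Gapdh*, with 3722 and 4405 FPKM in WT, against 5699 and 6079 in cKO (log2 change 0.90 ± 0.24), and *Eno1*, with 4255 and 3913 in WT, against 5972 and 4496 in cKO (0.70 ± 0.23). The adjusted p of both was 1. On the deposited scale neither passed, and *Hk2*, *Pdk2* and *Pdk3* passed the unadjusted rule as lower, 3 of 32 where 6.9% of all genes were lower by it on that scale. *Hk2* stood at 34.6 and 31.2 FPKM in WT, against 16.7 and 17.1 in cKO, both cKO libraries below both WT libraries. In deposited FPKM 40.1% of all genes were separated in that direction, and 12.5% after scaling. Relative to the median gene the *Hk2* change of -0.57 ± 0.24 passed neither rule. The median log2 change over members was 0.16 relative to the median gene and -0.20 as deposited, and only 12 of 32 members had 1 sign under all 4 scalings, 2 above 0 and 10 below.

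Replicates of a group also differed in these genes. Relative to the median gene, 25 of 32 members were higher in replicate 1 than in replicate 2 of E8.5 cKO, 12 in E8.5 WT, 23 in E9.5 WT and 4 in E9.5 cKO (9 as deposited). The median log2 difference, replicate 1 minus replicate 2, was 0.62 in E8.5 cKO, -0.06 in E8.5 WT, 0.17 in E9.5 WT and -0.30 in E9.5 cKO, while over all genes these medians lay between -0.05 and 0.07. Without regard to sign, the median log2 difference between replicates was 0.68 for members beside 0.42 for all genes in E8.5 cKO, 0.32 for members beside 0.28 for all genes in E9.5 cKO, 0.17 for members beside 0.20 for all genes in E8.5 WT and 0.23 for members beside 0.31 for all genes in E9.5 WT. The replicates of E8.5 cKO thus lay farthest apart, for members and for all genes. *Pgm2*, for example, was at 219 and 78.1 FPKM in replicates 1 and 2 of E8.5 cKO and *Slc2a1* at 824 and 363. Scaled decidual stroma markers summed to 818 and 1518 in WT, against 716 and 6012 in cKO, cardiomyocyte markers to 15679 and 26971 in WT, against 42598 and 33178 in cKO, and myeloid and natural killer markers to 357 and 66.1 in WT, against 6.81 and 269 in cKO. Of the cardiomyocyte markers 10 of 10 were above 0 in log2 change, with 2 higher by the unadjusted rule and a median of 0.56. Yolk sac endoderm markers summed to 504 and 1766 in WT, against 5506 and 1833 in cKO, with 10 of the 10 above 0 in log2 change, 4 of them higher by the unadjusted rule and a median of 1.45. By that rule 1.33% of all genes were higher. Primitive erythroid markers summed to 6338 and 18528 in WT, against 31044 and 14906 in cKO, and endothelial markers to 144 and 155 in WT, against 216 and 125 in cKO. Of the E8.5 libraries, cKO replicate 2 thus had the highest decidual sum and cKO replicate 1 the highest yolk sac, erythroid, endothelial and cardiomyocyte sums. The part of these differences in the member values was not tested. Without E8.5 cKO replicate 1 the median change of the members at E8.5 was -0.22, and without replicate 2 it was 0.50. The direction at E8.5 therefore rests on which cKO library is read.

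Whether the cKO difference itself changed between stages was tested by the interaction of the same limma fit, the cKO effect at E9.5 minus that at E8.5. No member was called by the adjusted rule (0.0399% of genes were). By the unadjusted rule 6 members had a larger cKO effect at E9.5 and 0 a smaller one, against 3.75% and 2.98% of genes. The count was 10 as deposited, 12 after quantile normalization and 11 with the total over longer loci, and ran from 4 without E8.5 WT replicate 2 to 13 without E8.5 cKO replicate 1. The 6 that passed relative to the median gene passed under the other scalings too. They were *Aldoc*, with an interaction of 2.75 ± 0.61, *Pfkp* (1.78 ± 0.57), *Hk2* (1.67 ± 0.34), *Slc2a4* (1.59 ± 0.48), *Slc16a3* (1.503 ± 0.47) and *Slc2a1* (1.31 ± 0.50), with adjusted p from 0.317 to 0.722. For *Gapdh*, *Ldha* and *Eno1* the interaction was near 0 (0.03, 0.05 and 0.07), with SE of 0.33, 0.37 and 0.33. This test uses the same 8 libraries as both comparisons above.

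In WT, many glycolytic members were called higher at E9.5 than at E8.5 relative to the median gene, and most of those calls were lost on the deposited scale. By the adjusted rule 11 of 32 were higher and 0 lower, against 3.2% and 0.689% of all genes, and as deposited 4 were higher and 4 lower, where 1.4% and 46.7% of all genes were on that scale. The 11 became 0 without E8.5 WT replicate 1 or E9.5 WT replicate 1, 2 without E8.5 WT replicate 2 and 5 without E9.5 WT replicate 2. By the unadjusted rule the counts were 19 higher and 1 lower, against 11.7% and 6.82%. *Hk1* and *Ldhb* were called higher under all 4 scalings. *Hk1* went from 16.6 and 28.8 FPKM at E8.5 to 78.6 and 97.9 at E9.5 (log2 change 2.92 ± 0.38, adjusted p = 0.011, and 1.95 as deposited). *Ldhb* went from 70.2 and 52.3 to 296 and 180.0 (2.90 ± 0.36, adjusted p = 0.011, and 1.91 as deposited). *Hk2* had the opposite order, from 34.6 and 31.2 to 9.001 and 7.49 FPKM, and passed the unadjusted rule as lower under all 4 scalings (-0.94 ± 0.24, adjusted p = 0.077).

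The remaining WT calls depended on the scaling. *Gapdh* (2.12 ± 0.24) and *Aldoa* (1.92 ± 0.29) were called higher relative to the median gene and as deposited, where their changes were 1.12 and 0.92. *Slc2a1*, *Gpi1*, *Tpi1*, *Pgam1*, *Eno1*, *Pkm* and *Ldha* had changes from 1.35 to 1.84 relative to the median gene and from 0.35 to 0.84 as deposited, where they were not called. Under quantile normalization *Pkm*, *Ldha* and *Eno1* had negative changes. The 4 called lower as deposited were *Hk2*, *Pfkfb4*, *Slc16a1* and *Pgm1*. Over the 32 members, 10 were above 0 and 7 below 0 under all 4 scalings, and 15 changed sign between them. The median over members was 1.05 relative to the median gene and 0.07 as deposited. Marker lists also differed between these stages. Of the 10 cardiomyocyte markers, 8 were called higher, with scaled sums of 15679 and 26971 at E8.5, against 85899 and 93138 at E9.5. Of the 10 yolk sac endoderm markers, 3 were called higher and 7 were higher by the unadjusted rule, with sums of 504 and 1766 at E8.5, against 8936 and 6636 at E9.5 and a median log2 change of 2.51. Erythroid sums were 6338 and 18528 at E8.5, against 21397 and 44422 at E9.5, though by the unadjusted rule 2 of the 10 markers were higher and 3 lower, against the 11.7% and 6.82% of all genes. Endothelial sums were 144 and 155 at E8.5, against 172 and 161 at E9.5. Decidual sums were 818 and 1518 at E8.5, against 1103 and 1266 at E9.5, and those of myeloid and natural killer markers 357 and 66.1 at E8.5, against 12.4 and 15.5 at E9.5, the latter with a median log2 change of -2.12 over 7 tested markers. Of the 8 tested decidual markers 1 was called higher and 3 were lower by the unadjusted rule, with log2 changes from -6.71 to 1.93. By that rule 2 of the myeloid and natural killer markers were lower and 1 of the 10 endothelial markers was higher. Their part in the member values was not tested.

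In cKO, calls from E8.5 to E9.5 ran from glucose uptake to lactate export, and most of them were kept on the deposited scale. By the adjusted rule 18 of 32 were higher and 0 lower, against 3.99% and 0.769% of genes, and as deposited 16 were higher and 3 lower, where 2.05% and 28.5% of all genes were. By the unadjusted rule 24 were higher and 1 lower, against 14.6% and 10.8%. The 11 called under all 4 scalings were *Slc2a1*, *Slc2a4*, *Hk1*, *Gpi1*, *Pfkl*, *Pfkp*, *Aldoc*, *Gapdh*, *Ldhb*, *Slc16a3* and *Pgm2*. *Slc2a1* went from 824 and 363 FPKM at E8.5 to 2867 and 2894 at E9.5 (3.15 ± 0.35, adjusted p = 0.0062), *Hk1* from 27.4 and 12.8 to 101 and 107 (3.15 ± 0.38, adjusted p = 0.0080) and *Pgm2* from 219 and 78.1 to 571 and 697 (3.02 ± 0.42, adjusted p = 0.013). *Slc16a3* went from 544 and 266 to 959 and 1051 (2.15 ± 0.33), and in WT from 450.0 and 476 to 410.0 and 323 (0.65 ± 0.33 relative to the median gene but -0.35 as deposited, so its sign in WT depends on the scaling). *Slc16a1* was the member lower by the unadjusted rule, from 38.7 and 77.1 to 11.9 and 17.8 (-1.11 ± 0.41, adjusted p = 0.143). Scaled cardiomyocyte markers in cKO summed to 42598 and 33178 at E8.5, against 109356 and 133370.0 at E9.5, endothelial markers to 216 and 125 at E8.5, against 313 and 309 at E9.5, erythroid markers to 31044 and 14906 at E8.5, against 59991 and 50051 at E9.5 and yolk sac markers to 5506 and 1833 at E8.5, against 5886 and 10261 at E9.5. By the unadjusted rule 9 of the 10 cardiomyocyte markers, 5 of the 10 endothelial markers, 3 of the 10 erythroid markers and 3 of the 10 yolk sac markers were higher, against the 14.6% of all genes. Decidual markers summed to 716 and 6012 at E8.5, against 1132 and 1256 at E9.5 and myeloid and natural killer markers to 6.81 and 269 at E8.5, against 17.2 and 24.9 at E9.5. Of these, 1 decidual marker was higher and 1 lower by the unadjusted rule, and 2 myeloid or natural killer markers were lower, against 10.8% of all genes. The part of these lists in the member values was not tested. The difference between the cKO and WT stage changes is the interaction given above. Without E9.5 cKO replicate 1 no member was called higher, without E9.5 cKO replicate 2 it was 1, and without E8.5 cKO replicate 2, the library with the high decidual markers, it was 6.

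**Figure D3:**
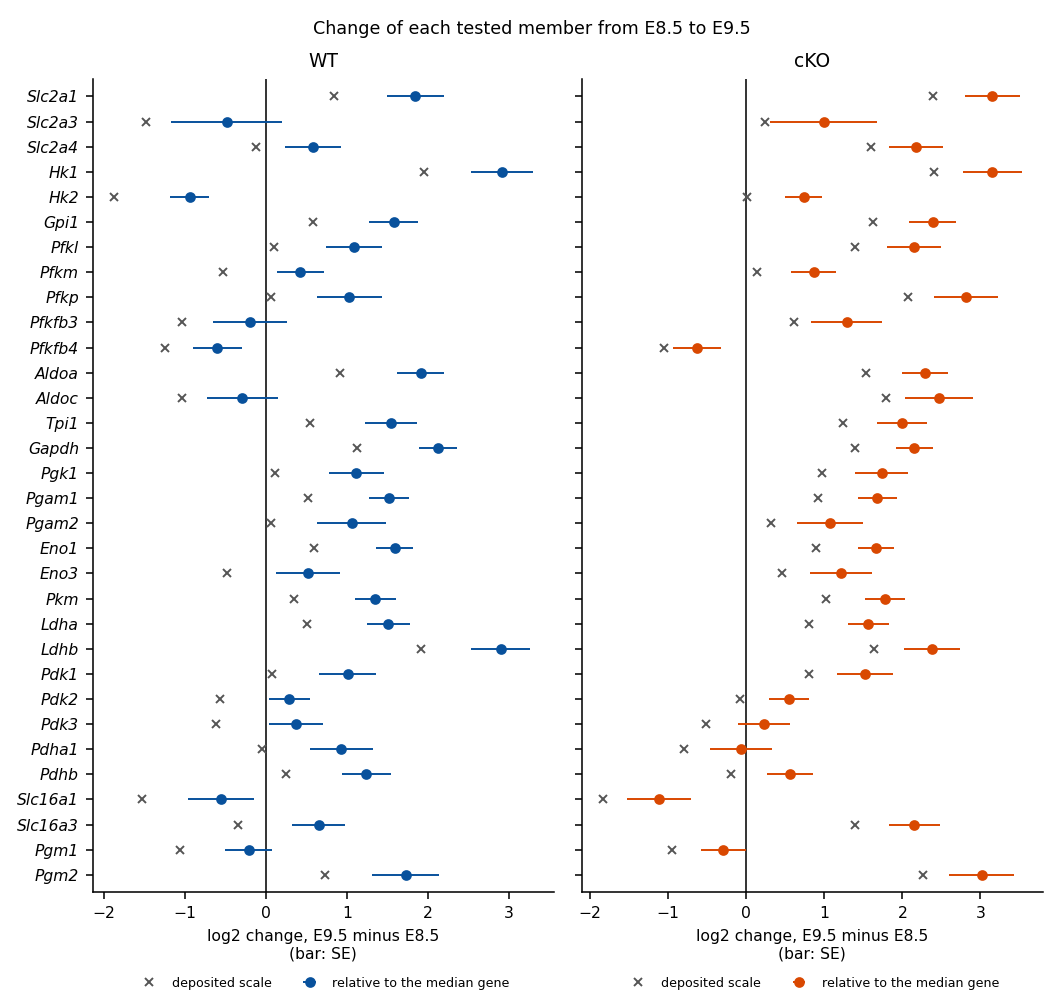
Log2 change from E8.5 to E9.5 of the 32 tested members in WT (left) and cKO (right), relative to the median gene (circles, bars are SE over 2 libraries per group) and as deposited (crosses). Every cross lies left of its circle, so several WT members that lie above 0 relative to the median gene lie near or below 0 as deposited, while *Hk1* and *Ldhb* lie above 0 on both.

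Shares of isozymes within a library do not depend on the scaling between libraries, and they are given as values without a test. *Hk2* made up 67.6% and 52.0% of *Hk1* plus *Hk2* FPKM in E8.5 WT, against 37.8% and 57.3% in E8.5 cKO. At E9.5 it made up 10.3% and 7.11% in WT, against 14.4% and 13.8% in cKO, so *Hk1* was the main hexokinase in every E9.5 library of both genotypes. *Ldhb* made up 1.29% and 0.958% of lactate dehydrogenase FPKM in WT at E8.5, then 3.50% and 2.42% at E9.5. In cKO its shares were 0.785% and 0.732% at E8.5, then 1.28% and 1.43% at E9.5, below WT in both libraries at each stage. *Slc16a1* held 4.42% and 5.44% of the 2 monocarboxylate transporters in E9.5 WT, against 1.23% and 1.67% in E9.5 cKO, the rest being *Slc16a3*.

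*Pfkp* held 11.3% and 19.6% of phosphofructokinase FPKM in E9.5 WT, against 24.5% and 26.6% in E9.5 cKO, where the E8.5 libraries lay between 11.3% and 19.0%. Among the 4 pyruvate dehydrogenase kinases *Pdk3* was the most abundant in every library, and *Pdk1* held 24.2% and 18.3% in E9.5 WT, against 34.5% and 34.0% in E9.5 cKO. The log2 changes at E9.5 of *Pdk1* (0.43 ± 0.36) and of *Pdk3* (-0.57 ± 0.33) passed neither rule. *Slc2a3* held 36.7% and 20.7% of the 3 glucose transporters in WT at E8.5, then 4.87% and 10.5% at E9.5. In cKO it held 25.6% and 19.2% at E8.5, then 5.96% and 6.13% at E9.5. *Eno1*, *Aldoa* and *Pgam1* dominated their families, *Eno1* with at least 92.1% in every library. The ratio of *Ldha* to *Pdha1* FPKM was 242 and 117 in E9.5 WT, against 551 and 411 in E9.5 cKO.

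**Figure D4:**
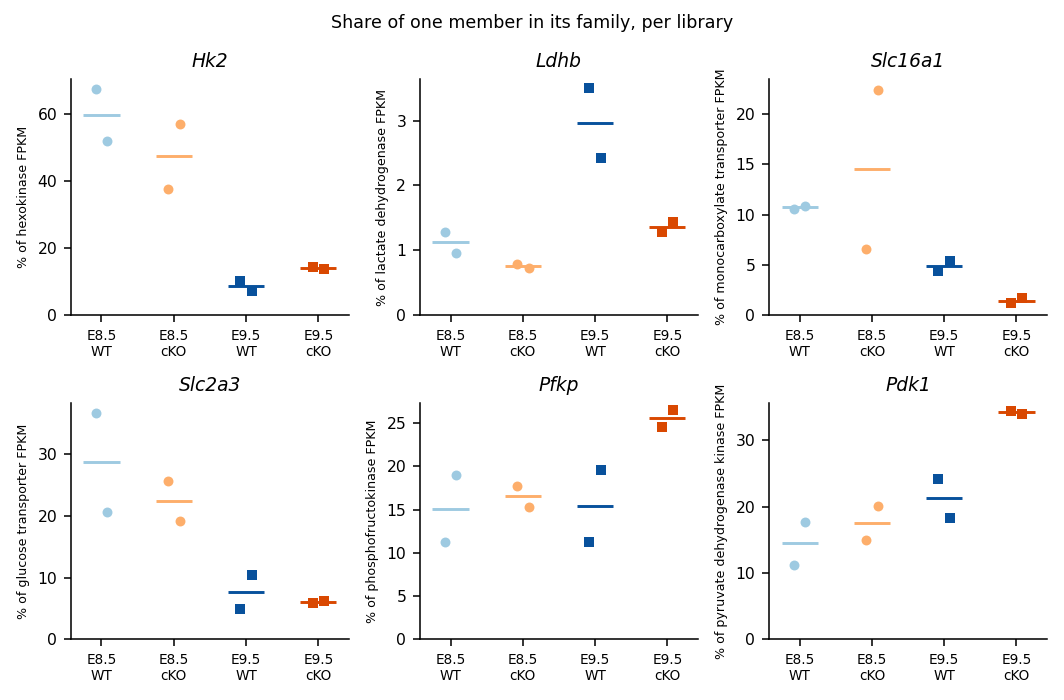
Share of 1 member in the summed FPKM of its family, in percent, per library (points) with the mean of the 2 libraries of a group (line). *Hk2* lies above 35% in each E8.5 library and below 15% in each E9.5 library, *Ldhb* is highest in E9.5 WT, and *Pfkp* and *Pdk1* are highest in E9.5 cKO.

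Related pathways were read from lists of other genes and were chosen with earlier results known. Of the 2 tested accessory genes of lactate export, *Bsg*, the basigin chaperone that brings MCT1 and MCT4 to the membrane, had 1459 and 1314 FPKM at E9.5 in WT, against 3539.8 and 3669 in cKO (log2 change 1.498 ± 0.32, adjusted p = 0.098). *Emb*, embigin, had 38.2 and 55.7 in WT, against 16.7 and 18.7 in cKO (-1.23 ± 0.35, adjusted p = 0.159). Of 15 glycogen genes, 3 were higher and 0 lower at E9.5 by the unadjusted rule, against 8.66% and 7.43% of all tested genes, and *Gys1*, glycogen synthase, was called by the adjusted rule, against 0.539% of genes. *Gys1* stood at 27.4 and 28.0 FPKM in WT, against 99.4 and 78.6 in cKO (1.76 ± 0.26, adjusted p = 0.038), and *Pygl*, the liver glycogen phosphorylase, at 11.1 and 12.7 in WT, against 25.9 and 33.4 in cKO (1.37 ± 0.31, adjusted p = 0.118). *Ppp1r3c*, which targets a phosphatase to glycogen, had 8.81 and 9.34 in WT, against 15.1 and 22.5 in cKO (1.08 ± 0.29, adjusted p = 0.146). Of 8 tested regulators of the hypoxia-inducible factors, 2 were called higher and none lower, against 0.539% and 0.02% of genes. These were *Egln3*, with 1.49 and 1.08 FPKM in WT, against 9.22 and 8.71 in cKO (2.36 ± 0.26, adjusted p = 0.012), and *Egln1*, with 2.79 and 2.18 in WT, against 8.70 and 6.60 in cKO (1.47 ± 0.23, adjusted p = 0.044). Both encode prolyl hydroxylases that mark HIF subunits for destruction and are themselves known HIF targets, while *Hif1a* had 5.43 and 36.9 FPKM in WT, against 11.8 and 4.34 in cKO (-0.83 ± 0.85, adjusted p = 0.683).

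Of 16 genes of the tricarboxylic acid cycle, 0 were higher and 1 lower at E9.5 by the unadjusted rule, shares close to or below the 8.66% and 7.43% of all tested genes, with a median log2 change of -0.37 beside 0.01 over all genes. The lower gene was *Idh3a*, a subunit of isocitrate dehydrogenase, with 90.2 and 149 FPKM in WT, against 23.9 and 54.1 in cKO (-1.55 ± 0.45, adjusted p = 0.168). None of 7 tested genes of mitochondrial pyruvate entry and none of 9 of the pentose phosphate pathway passed either rule, with medians of -0.31 and -0.36. Between the stages in WT, 6 of the 16 cycle genes were called higher and 0 lower, against 3.2% and 0.689% of all genes. Among those higher were *Mdh2*, malate dehydrogenase, and *Dlst*, a subunit of the oxoglutarate dehydrogenase complex, with log2 changes of 1.76 ± 0.29 and 1.62 ± 0.27. By the unadjusted rule all of the 16 but *Sucla2* and *Suclg2* were higher, against 11.7% of all genes. As deposited, limma called 0 higher and 0 lower, with 2 and 0 by the unadjusted rule, where 1.93% and 57.4% of all genes passed the latter. Of 13 other tested genes of glycolysis and gluconeogenesis, 2 were higher and 1 lower at E9.5 by the unadjusted rule, against the same 8.66% and 7.43% of all genes. The lower was *Bpgm*, the bisphosphoglycerate mutase of red cells, with 7.71 and 6.24 FPKM in WT, against 3.96 and 4.01 in cKO (-0.60 ± 0.23, adjusted p = 0.251), and the higher were *Pck2* (1.36 ± 0.31) and *Slc2a8* (0.92 ± 0.30).

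At E8.5 no gene of these lists was called by limma between cKO and WT. *Hkdc1*, a hexokinase family gene (0.65 ± 0.26), was higher and *Ppp1r3c* (-0.79 ± 0.29) lower by the unadjusted rule, which no other gene of the lists passed, against 1.33% and 0.848% of all genes. Between the stages in WT, no gene of the lists beside the cycle genes was called. Counts under the unadjusted rule were 4 higher and 2 lower of 15 glycogen genes, 2 higher and 4 lower of 13 other glycolytic and gluconeogenic genes, 2 higher and 0 lower of 7 genes of pyruvate entry and 1 higher and 0 lower of 9 pentose phosphate genes. *Bsg* was higher and *Emb* lower by that rule, and no regulator of the hypoxia-inducible factors passed it, where 11.7% of all genes were higher and 6.82% lower.

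Between the stages in cKO, limma called both accessory genes of lactate export, where 3.99% of all genes were called higher and 0.769% lower. *Bsg* was higher at E9.5 (2.44 ± 0.32, adjusted p = 0.011) and *Emb* lower (-2.34 ± 0.35, adjusted p = 0.016). Of the glycogen genes *Gys1* (2.48 ± 0.26, adjusted p = 0.0062) and *Pygl* (2.13 ± 0.31, adjusted p = 0.016) were called higher, and of the regulators *Egln3* (1.92 ± 0.26, adjusted p = 0.012) and *Egln1* (1.12 ± 0.23, adjusted p = 0.037). *Pck2*, the mitochondrial phosphoenolpyruvate carboxykinase, was called higher (2.06 ± 0.31, adjusted p = 0.017) and *Rpe*, an epimerase of the pentose phosphate pathway, lower (-1.37 ± 0.29, adjusted p = 0.042). Of the 16 cycle genes 3 were called higher, among them *Sdhb*, a succinate dehydrogenase subunit (1.30 ± 0.27), and *Mdh2* (1.29 ± 0.29), and no gene of pyruvate entry was called. As deposited, all of these named genes kept their sign, and the adjusted calls were 1 higher and 1 lower among the accessory genes, 2 and 3 among the glycogen genes, 1 and 0 among the regulators and 1 and 1 among the cycle genes. On that scale they were 1 and 5 among the other glycolytic and gluconeogenic genes, 0 and 4 among the pentose phosphate genes and 0 and 2 among the genes of pyruvate entry, where 2.05% of all genes were called higher and 28.5% lower. Of these lists no gene was called for the interaction, and by the unadjusted rule 3 higher and 1 lower of 15 glycogen genes, 3 higher and 0 lower of 8 regulators, 2 higher and 0 lower of 13 other glycolytic and gluconeogenic genes, 0 higher and 2 lower of 16 cycle genes and 1 higher of 2 accessory genes passed, against 3.75% higher and 2.98% lower of all genes.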

How the data were processed

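RNA sequencing was done on embryonic mouse hearts, with 2 biological replicates in each of 4 groups (E8.5 WT, E8.5 cKO, E9.5 WT, E9.5 cKO). Libraries were made from amplified full-length cDNA and sequenced on an Illumina instrument. The authors deposited a single table of FPKM per gene and library, with no read counts, so depth is unknown and no counting interval is given. The submitters' processing notes name BWA and mm9. The table's starts, however, lay within 1000 bp of RefSeq GRCm38 for 91.7% of the 9515 tested genes found there, so places are given on GRCm38, with 1 added to starts because the table counts them from 0. The counting software, the use of strand and the treatment of multi-mapped reads are not given in the sources used here.

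Of 24930 table entries, 24385 features remained, since each of 285 repeated symbols was reduced to its entry of highest mean; 27 symbols in date form were kept apart by locus. Median-ratio factors came from 9901 genes. Scaled FPKM plus 1 was log2 transformed and fitted for the 10018 genes whose mean reached 1 FPKM in limma 3.58.1 (R 4.3.3), with 4 group means in 1 model, a trended prior and Benjamini-Hochberg adjustment over those genes. Sums, shares and motif searches were made in Python 3.11.15 with pandas 2.3.3 and numpy 2.4.6. The fit was tested on simulated data. Alternatives were the deposited scale, quantile normalization, the FPKM total over loci of at least 300 bp, a pseudocount of 0.1, no filter and a mean of at least 5 FPKM, centring over 20 bins of transcript GC content, a replicate block, a fit of only the 4 libraries compared, and leaving out each library.

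The members, the pathway and marker lists and the scaling were chosen with earlier results of these data known. Every member is accounted for, and members of at least 1 FPKM are given with values by role. Genes of the other pathway lists are counted, and named where called by the adjusted rule, up to 3 per list; 1 such gene is not reported here. *Hif1a* and the pathway genes named by the unadjusted rule alone were chosen after their values were seen. Marker lists covered cardiomyocyte, endothelial, primitive erythroid, decidual stroma, myeloid and uterine natural killer, and yolk sac endoderm cells. Promoter windows are from RefSeq on GRCm38.p6.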

Additional observations from a re-analysis of the deposited data

How the results depend on the processing

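At E9.5 the direction of all 32 members was kept under the 4 scalings. The count of members called higher, 1, became 0 as deposited, under quantile normalization, with the long-locus total, with a pseudocount of 0.1, without a filter and with only the 4 libraries compared. Those lower by the unadjusted rule, 0, became 1 as deposited, with the long-locus total and with GC centring. *Slc16a1*, at -0.23, was 0.0696 with GC centring, with and without the block. Leaving out 1 library gave 0 to 4 called higher, 0 to 3 lower (unadjusted), and log2 changes of -0.36 to 0.22 for *Pfkfb4*, -0.71 to 0.016 for *Pdhb* and -0.60 to 0.13 for *Slc16a1*, where the highest value came without E9.5 WT replicate 1 for *Pfkfb4* and without E9.5 cKO replicate 1 for the others.

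At E8.5 the 2 members higher by the unadjusted rule became 0 as deposited, under quantile normalization and with the long-locus total, and 4 with GC centring. The 0 lower became 3 as deposited, 3 with the long-locus total and 1 with a pseudocount of 0.1. The median, 0.16, became -0.20 as deposited, -0.0522 under quantile normalization and -0.30 with the long-locus total, and *Eno1* was -0.0620 under quantile normalization. Leaving out 1 library gave 0 to 9 higher (9 without E8.5 cKO replicate 2), 0 to 1 lower and medians of -0.22 to 0.50.

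Between the stages in WT the 11 called higher became 4 as deposited, 2 under quantile normalization, 3 with the long-locus total and 1 without a filter, and the 19 unadjusted became 5, 4 and 4 under the same 3 scalings. The 0 called lower became 4 as deposited, 7 with the long-locus total, 1 with a mean of at least 5 FPKM and 1 with GC centring, and the 1 unadjusted became 4, 8 and 2 as deposited, with the long-locus total and with GC centring. The median, 1.05, became 0.0672 as deposited, 0.0429 under quantile normalization and -0.14 with the long-locus total. With that total *Pfkl* was -0.12, *Pfkp* -0.15, *Pgk1* -0.0974, *Pgam2* -0.15, *Pdk1* -0.13 and *Pdha1* -0.25; *Pdha1* was -0.0434 as deposited. Under quantile normalization *Pgk1* was -0.42, *Eno1* -0.0875, *Pkm* -0.35 and *Ldha* -0.31. Leaving out 1 library gave 0 to 13 called higher, namely 0 without E8.5 WT replicate 1 or E9.5 WT replicate 1, 2 without E8.5 WT replicate 2 and 5 without E9.5 WT replicate 2. It gave 0 to 1 called lower and 1 to 2 lower by the unadjusted rule.

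Between the stages in cKO the 18 called higher became 11 under quantile normalization, 3 without a filter and 8 with only the 4 libraries compared. The 0 called lower became 3 as deposited and 3 with the long-locus total, and the 1 unadjusted became 3, 4 and, with only the 4 libraries compared, 0. The median, 1.67, became 0.91 as deposited, 0.79 under quantile normalization and 0.79 with the long-locus total, with which *Hk2* was -0.0930. Leaving out 1 library gave 0 to 21 called higher, 0 to 1 called lower and 0 to 1 lower by the unadjusted rule. For the interaction the 6 unadjusted became 10 as deposited, 12 under quantile normalization and 11 with the long-locus total; leaving out 1 library gave 4 to 13 higher and 0 to 1 lower. Where a lone library remained in a group it was assumed to vary like the others. For these changes the cause was not tested.

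Replicate numbers were shared between groups, but same-numbered libraries did not deviate together: the correlation of their deviations was -0.014 for the E9.5 groups, 0.0048 for E8.5, -0.121 for the WT stages and -0.0696 for the cKO stages. With the replicate block, calls at E9.5 went from 1 to 0 higher and unadjusted from 0 to 1 lower, also with GC centring. In WT the block gave 4 called higher, and with GC centring 2 lower by the unadjusted rule. In the interaction it gave 1 lower by the unadjusted rule, also with GC centring. A crossed pairing of the WT libraries, added after seeing the data, gave 11 called higher and 0 lower. Single-member calls near the threshold rest on 2 libraries per group, and low members such as *Slc2a4* and *Pfkfb4* are understated by the pseudocount.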
